A study of Homo sapiens with 18 samples.

Results

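HSP90 is the chaperone that holds many kinases and hormone receptors in a form that can be activated. The transcripts described here are those of HSP90 itself, its cochaperones and a transcription factor of chaperone genes: *HSP90AA1*, *HSP90AB1*, *TRAP1*, *STIP1*, *CDC37*, *AHSA1*, *PTGES3*, *FKBP4*, *CHORDC1* and *HSF1*. They are 10 of the 58051 genes measured, chosen by name for their role, and all 10 passed the filter on low counts. They were read in SKMEL2 and SKMEL30, melanoma cell lines that both carry an *NRAS* variant and the inducible vector pTRIPZ-PPP2R3B. *PPP2R3B* encodes PR70, a regulatory subunit of the phosphatase PP2A. Each line gave 3 libraries of uninduced cells, 3 of cells given doxycycline for 6 h and 3 for 18 h, which makes 6 groups and 18 libraries. The labels give the later time as 18 h, whereas the study's text gives an earlier hour for it.

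The vector is a tet-ON construct, so doxycycline switches on the added *PPP2R3B*. Each model is a single stably transduced line selected with puromycin, and uninduced cells carry the vector too. No library of cells given doxycycline without the *PPP2R3B* vector was analysed here, so doxycycline and *PPP2R3B* cannot be told apart. Nothing in the labels says that the 3 libraries of a group came from separate cultures, and p-values measure only the spread between these libraries.

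HSP90 works as a dimer that opens and closes as it binds and splits ATP. *HSP90AB1* encodes the constitutive cytosolic form and *HSP90AA1* the cytosolic form that cells raise under stress. Cochaperones bind in turn: some deliver clients, some drive or hold the ATP cycle, and some carry an enzyme activity of their own. HSF1 is kept inactive by HSP90 in resting cells and, once released, binds heat shock elements in the promoters of chaperone genes.

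Heat shock elements are alternating GAA and TTC units with a gap of any 2 bases. Promoter windows from RefSeq (GRCh38.p14, 250 bases before to 50 after each start) were searched on both strands for GAANNTTC and TTCNNGAA, which hold 2 units, and for GAANNTTCNNGAA and TTCNNGAANNTTC, which hold 3 and contain both shorter forms. Windows were matched by symbol for 8 of the 10 genes. *FKBP4* and *HSF1* had no window. A run of 2 units stood in a window of 4 of the 8 genes, against 16.2% of all 27305 genes in the table. A run of 3 units stood in 3 of the 8, *HSP90AA1*, *HSP90AB1* and *CHORDC1*, against 0.608% of all genes. A match describes letters and not a bound site. The stretches are shown because these 3 genes include both cytosolic isoforms and the cochaperone that differed most between the lines; capitals mark the units of the 3-unit runs.
HSP90AA1: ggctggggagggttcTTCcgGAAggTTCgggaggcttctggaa
HSP90AB1: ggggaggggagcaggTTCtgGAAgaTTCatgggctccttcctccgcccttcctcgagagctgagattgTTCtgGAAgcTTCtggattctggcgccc
CHORDC1: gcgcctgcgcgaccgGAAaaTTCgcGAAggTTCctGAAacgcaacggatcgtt

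The *HSP90AA1* stretch is chr14:102087105-102087147, minus strand, and its run lies 88 to 76 bases before the start at base 102087044. That start lies inside the annotated gene, whose outermost start is at base 102139749. The *HSP90AB1* stretch is chr6:44247763-44247858, plus strand, with 2 runs from 165 to 100 bases before a start at base 44247943. That start also lies inside the gene, which runs from 44246194 to 44253883, and the windows at the starts further upstream hold no run. The *CHORDC1* stretch is chr11:90223072-90223124, minus strand, 60 to 38 bases before the gene's outermost start at base 90223049. It holds 3 overlapping matches.

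Library totals ran from 13402645 to 22383470 counts. *PPP2R3B* was the check of induction: its highest uninduced library held 24.35 CPM (counts scaled to a common library total) in SKMEL2 and 22.44 in SKMEL30, and its lowest induced library 343.0 and 521.1. In bulk RNA of a line, a large change in some cells and a small change in every cell cannot be told apart. The 8 melanocyte markers summed to 4220 to 4920 CPM in SKMEL2 and 8800 to 9320 in SKMEL30, with *TYRP1* at only 3.44 to 12.1 CPM in SKMEL2. Of 10 markers of fibroblasts, keratinocytes, leukocytes and endothelium, 9 were measured, and they summed to at most 130 CPM in any library. The sum ran from 47.3 to 68.3 CPM in SKMEL2 and from 64.2 to 130 in SKMEL30. Keratins varied between SKMEL30 libraries, with *KRT5* at 0.0 to 37.5 CPM and *KRT14* at 0.0 to 26.4. The leukocyte marker *CD68* stood at 32.3 to 54.8 CPM in SKMEL2 and 33.1 to 37.7 in SKMEL30. The fibroblast marker *LUM* stood at 1.59 to 3.18 and 27.5 to 32.7 CPM. Apart from these and the keratins, no marker measured passed 2.97 CPM in any library.

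The first comparison asked how far the lines differed before induction. All 10 genes differed between uninduced SKMEL2 and SKMEL30 (edgeR's quasi-likelihood test, Benjamini-Hochberg adjusted p under 0.05). This is to be read against the 75.9% of all genes tested that differed there. Of the 10, 6 were higher in SKMEL2, where 40.1% of all genes were, and 4 were lower, where 35.8% were. The median log2 difference over the 10 was 0.235, and 0.054 over all genes. The differences ranged from a *CHORDC1* level 2.97 times as high in SKMEL2 to a *STIP1* level only 0.528 times that in SKMEL30.

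*HSP90AA1* stood at 3219, 3299 and 3296 CPM in the uninduced SKMEL2 libraries and at 1814, 1825 and 1771 in those of SKMEL30. The groups were far apart, with a log2 difference of 0.86 (SE 0.044, adjusted p = 8.09e-13, edgeR). *HSP90AB1* went the other way, with 2774, 2820 and 2718 CPM in SKMEL2 and 3121, 3083 and 3186 in SKMEL30. Its difference was small, -0.18 on the log2 scale (SE 0.037, adjusted p = 0.000261, edgeR), yet no SKMEL2 library reached the lowest of SKMEL30. *TRAP1*, the mitochondrial form of HSP90, was also lower in SKMEL2, at 117.7, 127.4 and 129.1 CPM against 151.6, 149.5 and 142.4. Its log2 difference was -0.24 (SE 0.056, adjusted p = 0.000562, edgeR).

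The isoforms thus took different shares in the lines. Per kilobase of the canonical transcript, *HSP90AA1* made up 48.3% ± 0.586 (SD, n = 3) of the cytosolic HSP90 transcripts in uninduced SKMEL2 and 31.3% ± 0.721 in uninduced SKMEL30. *HSP90AB1* was the more abundant isoform in both, at 1080 and 1230 CPM per kilobase, beside 1010 and 559 for *HSP90AA1*. The share depends on the length used: over the union of all exons the levels in SKMEL2 were 930 for *HSP90AB1* and 642 for *HSP90AA1*. By library the share of *HSP90AA1* lay between 45.8% and 49.0% in all 9 SKMEL2 libraries and between 30.5% and 33.5% in all 9 of SKMEL30.

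**Figure D1:**
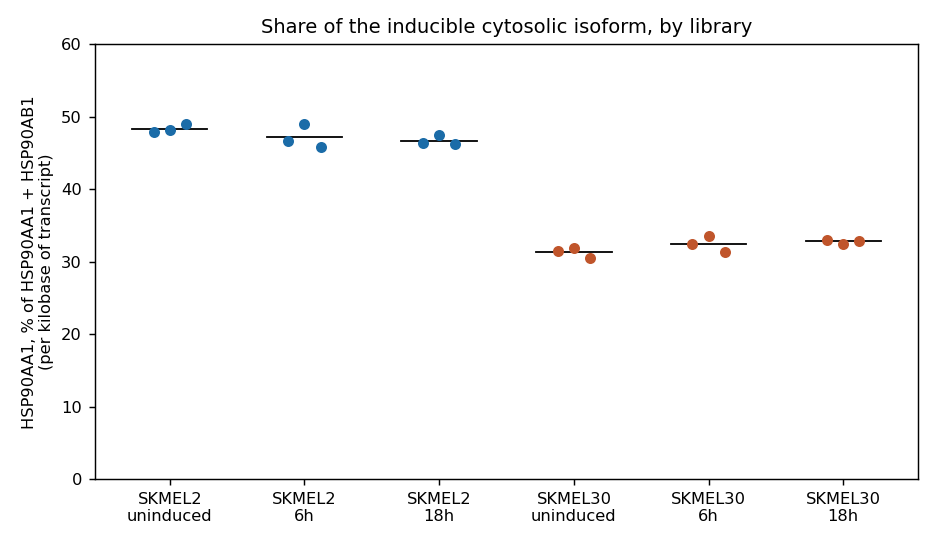
*HSP90AA1* as a percentage of *HSP90AA1* plus *HSP90AB1*, both per kilobase of canonical transcript (vertical axis), in each library (points) of the 6 groups, with the group mean as a line. The SKMEL2 libraries sit between 45.8% and 49.0% and the SKMEL30 libraries between 30.5% and 33.5%; group means ran from 46.6% to 48.3% and from 31.3% to 32.8%.

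Among the cochaperones, the widest differences were in *CHORDC1* and *AHSA1*. *CHORDC1* encodes a zinc-binding cochaperone also known as morgana. It stood at 172.8, 166.8 and 177.8 CPM in uninduced SKMEL2 and 59.87, 57.14 and 56.99 in SKMEL30, a log2 difference of 1.57 (SE 0.079, adjusted p = 5.44e-13, edgeR). *AHSA1*, which encodes the strongest known activator of the HSP90 ATPase, stood at 230.0, 235.5 and 247.2 CPM against 107.3, 106.5 and 104.5. Every SKMEL2 library was above 2 times the highest of SKMEL30, and the log2 difference was 1.16 (SE 0.041, adjusted p = 2.23e-15, edgeR).

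*STIP1* encodes HOP, the adaptor that passes clients from HSP70 to HSP90, and went the other way. Its levels were 238.9, 261.9 and 295.9 CPM in SKMEL2 and 507.7, 490.8 and 512.0 in SKMEL30. The log2 difference was -0.92 (SE 0.063, adjusted p = 7.11e-11, edgeR), with the 3 SKMEL2 libraries spread more widely than those of SKMEL30. *CDC37* encodes the adaptor for kinase clients, at 256.7, 277.7 and 344.6 CPM in SKMEL2 against 181.5, 177.4 and 166.7. It was higher in SKMEL2 by 0.74 on the log2 scale (SE 0.083, adjusted p = 1.17e-07, edgeR), with 1 SKMEL2 library, replicate 3, well above the other 2.

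*FKBP4*, an immunophilin that serves steroid receptors, was higher in SKMEL2 by 0.31 on the log2 scale (SE 0.043, adjusted p = 1.7e-06, edgeR). Its uninduced libraries ran from 199.2 to 203.5 CPM there and from 158.5 to 165.2 in SKMEL30. *PTGES3* encodes p23, which holds HSP90 closed around its client. It was higher in SKMEL2 by 0.16 (SE 0.051, adjusted p = 0.00935, edgeR), but the groups overlapped, with 440.8 to 502.1 CPM in SKMEL2 and 405.5 to 459.3 in SKMEL30. *HSF1* was lower in SKMEL2 by 0.22 on the log2 scale (SE 0.078, adjusted p = 0.0142, edgeR), and its groups overlapped too, at 51.79, 56.51 and 64.39 CPM against 71.76, 67.01 and 63.38. The *PTGES3* call was lost without uninduced replicate 2 of SKMEL2 or replicate 1 or 2 of SKMEL30, with a difference down to 0.10 and an adjusted p up to 0.0906 (edgeR). The *HSF1* call was lost without uninduced replicate 1 of either line, with a difference of -0.16 and an adjusted p of 0.0783 at the weakest (edgeR).

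**Figure D2:**
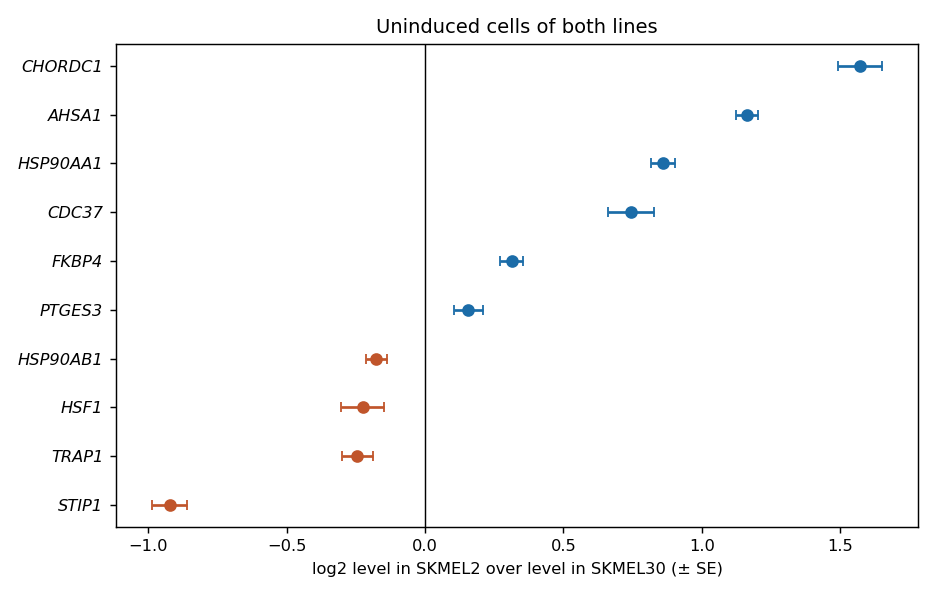
Log2 difference in level between uninduced SKMEL2 and uninduced SKMEL30 (horizontal axis, points, ± SE as bars) for the 10 genes, sorted by size. *CHORDC1* at 1.57 and *AHSA1* at 1.16 lie farthest to the SKMEL2 side and *STIP1* at -0.92 to the SKMEL30 side.

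In 8 of the 10 genes the 3 uninduced libraries of a line were all above those of the other, and this held for 78.3% of all genes. The same 8 were apart over all 9 libraries of each line, induced ones included, as were 62.6% of all genes. *PTGES3* and *HSF1* were the exceptions. The summed melanocyte markers were higher in every SKMEL30 library than in any of SKMEL2, as were *MITF*, *PMEL* and *TYRP1*. Singly, *SOX10*, *MLANA*, *TYR* and *S100B* were higher in every SKMEL2 library, and *DCT* overlapped, so the sum does not rank the lines by all markers. The part of these markers in the differences between the lines was not tested.

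Levels of different genes were ordered per kilobase of canonical transcript. Both cytosolic isoforms led in both lines. In uninduced SKMEL2 they were followed by *PTGES3* at 250 CPM per kilobase, *CDC37* at 181, *AHSA1* at 178 and *STIP1* at 124. *CHORDC1* at 56.2, *TRAP1* at 56.1 and *FKBP4* at 54.3 were not apart from each other, nor was *CDC37* from *AHSA1*. Per kilobase of all exons the order of these 3 changed and they were apart, with *FKBP4* at 39.1, *TRAP1* at 24.1 and *CHORDC1* at 15.5, and *CDC37* at 96.3 was apart from *AHSA1* at 80.7. *HSF1* was last at 27.0. In SKMEL30 *STIP1* stood at 235 and was not apart from *PTGES3* at 225, while *CHORDC1* took the last place at 18.9, below *HSF1* at 31.6. Per kilobase of all exons *PTGES3* at 125 stood above *STIP1* at 109 there, with no overlap. Together the 10 genes took 0.814% ± 0.0133 (SD, n = 3) of all counts in uninduced SKMEL2 and 0.635% ± 0.00569 in uninduced SKMEL30, most of it from the cytosolic isoforms.

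The next question was whether these levels moved when *PPP2R3B* was induced. None of the 10 genes was called in any comparison of induced with uninduced cells, by edgeR or by DESeq2 on the same libraries. The background was low as well. In SKMEL2, 0.0124% of all genes were called at 6 h, 0.0124% at 18 h, 0.0% between 18 h and 6 h and 0.0186% with both induced groups together. In SKMEL30 the shares were 0.206%, 0.293%, 0.02% and 0.26%. At an unadjusted p under 0.05, edgeR had 0, 2, 1 and 1 of the 10 genes in the SKMEL2 comparisons in that order, where 3.37%, 4.65%, 2.59% and 4.42% of all genes were. In SKMEL30 it had 2, 1, 0 and 2 of the 10, where 6.44%, 9.14%, 5.56% and 8.67% of all genes were.

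**Figure D3:**
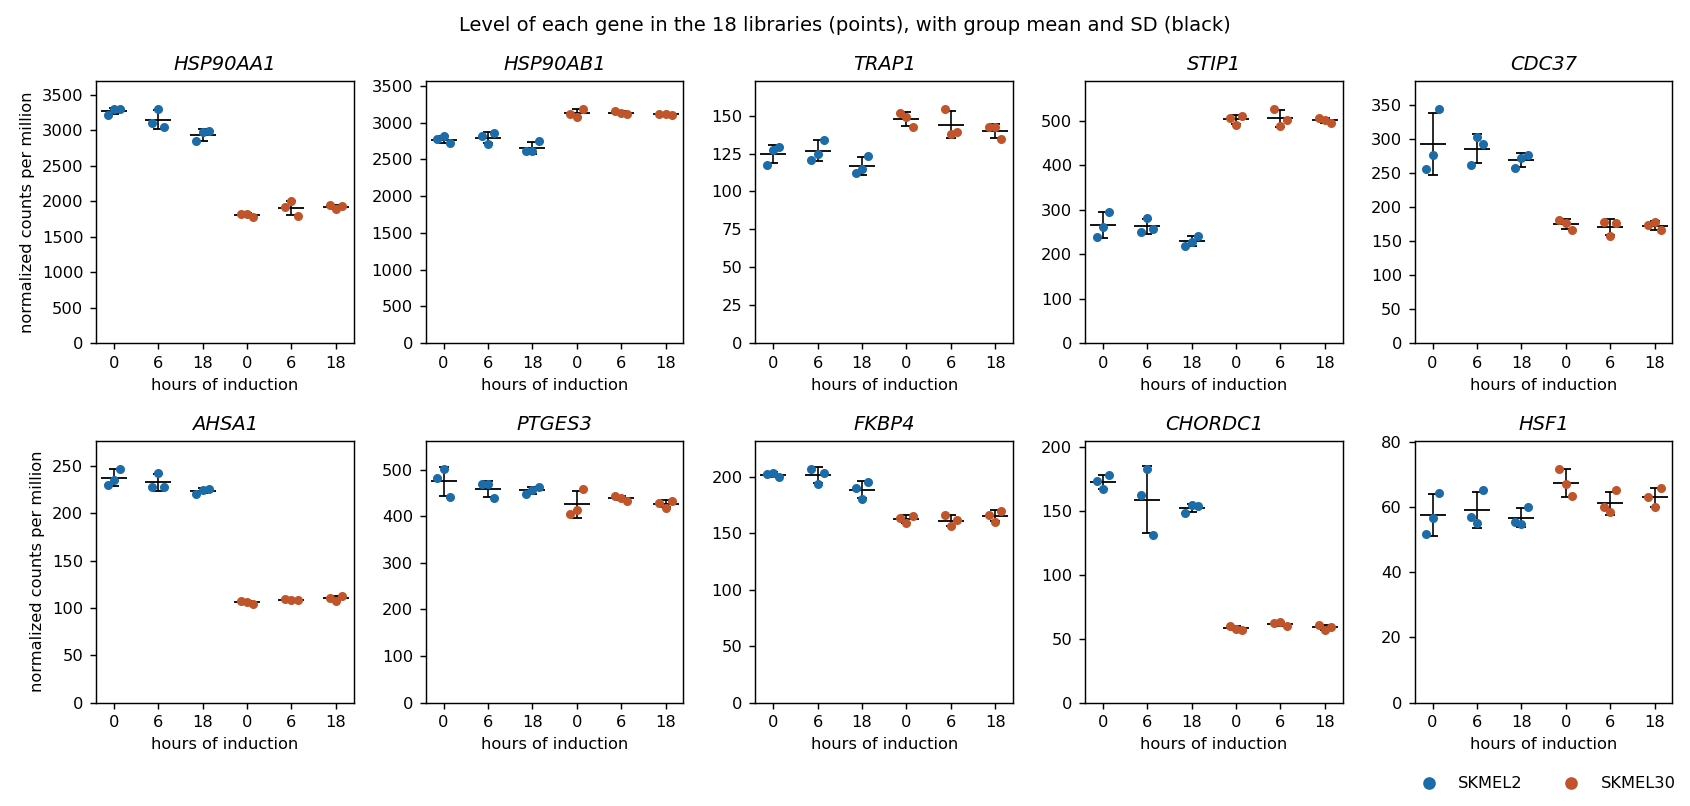
Level in CPM (vertical axes, each from 0) of the 10 genes in each library (points) at 0, 6 and 18 hours of induction in SKMEL2 and SKMEL30, with group mean and SD in black. The lines stand apart in most panels, while within a line the groups lie close together.

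In SKMEL2 at 18 h all 10 fitted values were below 0, where 50% of all genes were. Their median log2 change was -0.098, against 0.0 over all genes, so these were small differences, and none passed the test. At 6 h in the same line 6 of the 10 were below 0, where 49.1% of all genes were. The median over the 10 was -0.019, against 0.003 over all genes. Both times share the uninduced libraries. Summed over the 10 genes, the level was 7746 to 7950 CPM in uninduced SKMEL2 libraries, 7653 to 7870 at 6 h and 7103 to 7486 at 18 h, so the 6 h group overlapped the uninduced one and the 18 h group lay below it. In SKMEL30 the sums were 6529 to 6628, 6560 to 6778 and 6639 to 6725 CPM, with overlap at 6 h and the 18 h group just above. These sums are mostly *HSP90AA1* and *HSP90AB1*, and they were not tested.

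*HSP90AA1* stood at 3108, 3300 and 3047 CPM at 6 h and at 2843, 2978 and 2993 at 18 h, after 3219, 3299 and 3296 without induction. At 6 h the range covered the uninduced one, while at 18 h every library was below. The 18 h change was -0.16 on the log2 scale (SE 0.054, unadjusted p = 0.0126, adjusted p = 0.987, edgeR), or -10.3%. This gene was called by a single alternative: DESeq2 on all 18 libraries gave -0.15 with an adjusted p of 0.0246, in a fit that called 0.391% of all genes. *HSP90AA1* also stands in the study's own list for SKMEL2, so its selection was not independent of these libraries.

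*STIP1* had the largest fitted change at 18 h, -0.22 (SE 0.077, unadjusted p = 0.0154, adjusted p = 0.987, edgeR). Its 18 h libraries held 219.2, 227.0 and 240.9 CPM, and the highest of them passed the lowest uninduced library, 238.9. Without uninduced replicate 3, which had the highest *STIP1* level, the change was -0.13. Of the others, *CHORDC1* changed by -0.18 (SE 0.090, adjusted p = 0.987, edgeR), with 148.4, 154.1 and 153.6 CPM at 18 h, all below the uninduced libraries. At 6 h its libraries lay far apart, at 161.8, 182.7 and 131.2 CPM, and its change of -0.12 became -0.0081 without replicate 3 and -0.23 without replicate 2 of that group.

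*AHSA1* and *FKBP4* were also lower in every 18 h library than in every uninduced one, at 220.7 to 225.4 CPM and 180.2 to 195.2 CPM. Thus 4 of the 10 genes had all 3 libraries at 18 h below all 3 uninduced ones, as had 6.89% of all genes, and none had all 3 above, as had 7.43%. At 6 h none of the 10 was apart in either direction, where 3.19% of all genes were above and 3.61% below. With 3 libraries against 3, an exact permutation test of a single gene cannot reach the threshold, and the fit across all genes is the test used.

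The other genes changed less at 18 h in SKMEL2. The fitted values were -0.061 for *HSP90AB1* (SE 0.054), -0.097 for *TRAP1* (SE 0.064) and -0.063 for *PTGES3* (SE 0.059). *CDC37* was at -0.13 (SE 0.095), but at 0.0044 without uninduced replicate 3. *HSF1* transcripts were at -0.024 (SE 0.091), with 55.38, 54.79 and 60.13 CPM within the range of the uninduced libraries. Uninduced replicate 3 held the highest levels of *STIP1*, *CDC37* and *HSF1* in its group, and its part in these values beyond leaving it out was not tested.

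Between 6 h and 18 h in SKMEL2 all 10 fitted values were again below 0, where 52.1% of all genes were. The median over the 10 was -0.087, against -0.006 over all genes. *STIP1* was the gene with an unadjusted p under 0.05, at -0.20 on the log2 scale (SE 0.077, adjusted p = 1.0, edgeR). These values rest on the same 18 h libraries as those above.

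In SKMEL30 the fitted values were split, with 6 of the 10 genes above 0 at 6 h and 5 at 18 h, and medians of 0.004 and -0.002. Of all genes 49.7% were fitted below 0 at each time. *HSP90AA1* was higher, at 1917, 1998 and 1795 CPM at 6 h and 1947, 1895 and 1927 at 18 h, after 1814, 1825 and 1771. At 6 h the libraries overlapped the uninduced ones, and at 18 h all 3 were above. The changes were 0.077 (SE 0.032, adjusted p = 0.724) and 0.092 (SE 0.032, adjusted p = 0.366) on the log2 scale by edgeR, so neither was called. The size at 18 h corresponds to 6.61%.

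*AHSA1* was above its uninduced libraries at both times, at 108.2 to 109.9 CPM and 107.3 to 113.0 CPM after 104.5 to 107.3, where the touching values are equal only after rounding. The change was 0.034 (SE 0.032) at 6 h and 0.054 (SE 0.032) at 18 h. At 6 h this was the only one of the 10 genes with all libraries above, where 5.44% of all genes were. At 18 h *AHSA1* and *HSP90AA1* were, where 7.88% of all genes were. None was below at 6 h, where 5.84% of all genes were, or at 18 h, where 8.13% were.

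*HSF1* had the largest fitted change in SKMEL30, -0.14 at 6 h (SE 0.056, unadjusted p = 0.0262, adjusted p = 0.707, edgeR). Its libraries held 59.89, 58.51 and 65.17 CPM at 6 h and 63.11, 59.9 and 65.89 at 18 h, after 71.76, 67.01 and 63.38. The groups overlapped at both times, and the 18 h change was -0.098 (SE 0.056, adjusted p = 0.643, edgeR). Without uninduced replicate 1, which had the highest *HSF1* level, the changes were -0.091 at 6 h and -0.049 at 18 h. *TRAP1* was at -0.079 at 18 h (SE 0.044) and *CHORDC1* at 0.080 at 6 h (SE 0.040). *HSP90AB1* stood close to its uninduced level, with 3108 to 3126 CPM at 18 h after 3083 to 3186, and a change of -0.0065 (SE 0.020).

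**Figure D4:**
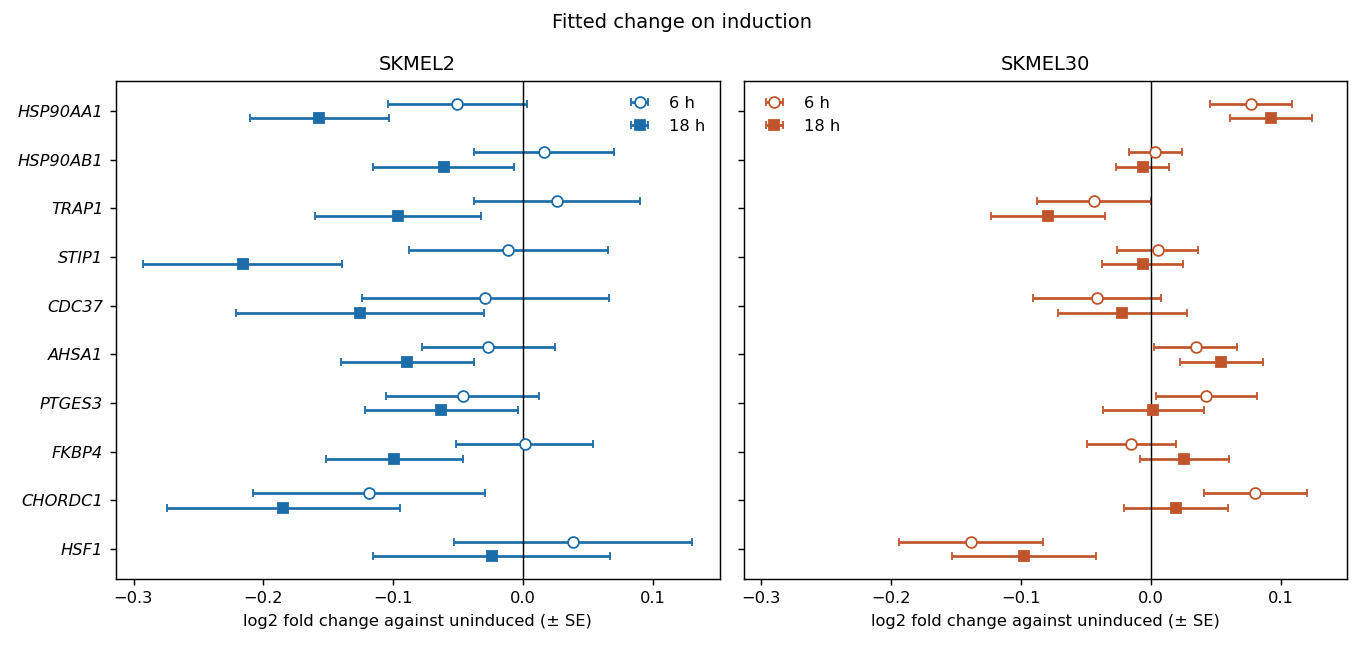
Log2 fold change against uninduced cells (horizontal axis, points, ± SE as bars) of the 10 genes at 6 h (open circles) and 18 h (filled squares) in SKMEL2 (left) and SKMEL30 (right). In SKMEL2 the 18 h values are all below 0, from -0.22 for *STIP1* to -0.024 for *HSF1*; in SKMEL30 the values lie on both sides of 0, with *HSP90AA1* highest at 0.092 at 18 h.

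Whether the lines responded differently was tested as an interaction over all 18 libraries. None of the 10 genes was called at 6 h, where 0.0% of all genes were, or at 18 h, where 0.00584% were, by edgeR or DESeq2. At an unadjusted p under 0.05, edgeR had 1 of the 10 at 6 h, where 4.91% of all genes were, and 3 at 18 h, where 5.16% were. *HSP90AA1* was both the gene at 6 h and the first at 18 h, with SKMEL2 minus SKMEL30 differences of -0.13 (SE 0.062, adjusted p = 0.902) and -0.25 (SE 0.062, adjusted p = 0.732) by edgeR. At 18 h *STIP1* had a difference of -0.21 (SE 0.089, adjusted p = 0.895, edgeR), or -0.12 without uninduced replicate 3 of SKMEL2, and *AHSA1* of -0.14 (SE 0.058, adjusted p = 0.895, edgeR).

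The wider HSP90 system was read in lists of named genes. Of 29 further genes, namely the endoplasmic reticulum paralog *HSP90B1*, other cochaperones and related genes, none was called on induction in any comparison by edgeR or DESeq2. At an unadjusted p under 0.05, edgeR had 3 of them at 6 h and 2 at 18 h in SKMEL2, beside 3.37% and 4.65% of all genes, and 1 and 5 in SKMEL30, beside 6.44% and 9.14%. The pair with the smallest p at 18 h in SKMEL2 was *FLCN*, which encodes folliculin, at 0.31 (SE 0.10, adjusted p = 0.987, edgeR), and *PPID*, an immunophilin, at -0.18 (SE 0.080, adjusted p = 0.987, edgeR). Between the uninduced lines 24 of the 29 were called, 16 higher and 8 lower in SKMEL2, and the 29 had a median of 0.233. Among all genes 75.9% were called there, 40.1% higher and 35.8% lower, with a median of 0.054.

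Of 18 genes listed as targets of HSF1 or partners in the heat shock response, not all of them chaperones, 17 were tested in SKMEL2 and 18 in SKMEL30. The median of these heat shock genes at 18 h was -0.09 in SKMEL2, with 13 of 17 fitted below 0 and 6 at an unadjusted p under 0.05, beside 4.65% of all genes, and 0.023 in SKMEL30, with 1 at that p, beside 9.14%. *HSPA1A*, the stress-inducible HSP70, was at -0.28 in SKMEL2 at 18 h (SE 0.057, unadjusted p = 0.000383, adjusted p = 0.577, edgeR). It was called by DESeq2, with an adjusted p of 0.0192 on the same libraries and 0.00526 on all 18, and by edgeR with no filter on low counts, with 0.0343. Its level was 154 to 173 CPM without induction and 131 to 138 at 18 h. *HSPA1A* has a near-identical neighbour, *HSPA1B*, and reads shared between them make each value uncertain. In the same comparison *HSPA1B* was at -0.22 (SE 0.061, unadjusted p = 0.0041, adjusted p = 0.859, edgeR). It held 154 to 170 CPM without induction and 134 to 151 at 18 h.

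Between the uninduced lines 17 of the 18 heat shock genes were called, 7 higher and 10 lower in SKMEL2. Of all genes 75.9% were called there, 40.1% higher and 35.8% lower. Chosen after its values were seen, *SERPINH1*, which encodes the collagen chaperone HSP47, was all but absent from SKMEL2, at 0.0995 to 0.176 CPM, and at 83.3 to 87.8 CPM in SKMEL30. A 3-unit run of the heat shock element stood in the promoter windows of 4 of the 17 heat shock genes that had a window, *HSPA8*, *DNAJA1*, *HSPD1* and *SERPINH1*. It stood in 0 of 20 further cochaperone genes and in 0 of 11 client genes. Among all genes the share was 0.608%, and lists of 20 and 11 genes are too short to tell 0 from that share.

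Of 15 genes of HSP90 clients, 14 were tested. None was called on induction by edgeR or DESeq2 on the same libraries, with 0 at an unadjusted p under 0.05 at both times in SKMEL2 and 1 and 3 in SKMEL30 by edgeR, where the shares of all genes were 3.37%, 4.65%, 6.44% and 9.14%. The pair with the smallest p at 18 h in SKMEL2 was *HIF1A*, the oxygen-regulated transcription factor, at -0.15 (SE 0.071, adjusted p = 0.987, edgeR), and the kinase *SRC* at 0.13 (SE 0.082, adjusted p = 0.987, edgeR). Between the uninduced lines all 14 were called, 5 higher and 9 lower in SKMEL2, with a median of -0.257. Of all genes 75.9% were called there, 40.1% higher and 35.8% lower, and their median was 0.054. These values are of RNA, and clients depend on HSP90 as proteins.

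The genes whose pattern over the 18 libraries was most like that of *HSP90AA1* were ranked by Pearson's r of log2 CPM, after each line's mean had been subtracted. Of 16839 genes the first 5 were *BCLAF1* (r = 0.855), *BAZ1A* (r = 0.854), *FXR1* (r = 0.85), *CWC27* (r = 0.849) and *ZNF92* (r = 0.841). Of the 10 genes described here *AHSA1* was the nearest, in place 18 with r = 0.805, and *CHORDC1* and *STIP1* followed in places 194 and 409. *HSP90AB1* was far down the order at r = 0.34 and *HSF1* was at r = -0.226. These are descriptions over libraries that share a scaling and a group structure.

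Several of the 10 genes have processed copies elsewhere in the genome, between which the counting could split reads. The copies named for *HSP90AA1* held at most 0.143% of its count, those of *HSP90AB1* 0.483% and those of *PTGES3* 0.836%, the highest share among 7 genes with such copies.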

How the data were processed

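RNA was extracted from the cells and libraries were made with an mRNA kit. Per the study's methods, the authors trimmed and aligned reads to GRCh38 and estimated counts per gene with RSEM 1.3.0; the submitters' notes name Trimmomatic 0.36, cutadapt 1.5, STAR 2.2.2a and SAMtools 1.8, and the versions given for cutadapt and STAR in the methods differ. The values deposited by the authors are RSEM expected counts for 58051 genes, unscaled, of which 12.3% of values were not whole. All 18 columns matched a sample and 0 were left over. Symbols were found for 95.8% of the genes.

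Analysis used R 4.3.3 and edgeR 4.0.16. Expected counts were rounded, low counts removed by filterByExpr and libraries scaled by TMM. Each line's 9 libraries entered a joint fit (16120 genes tested in SKMEL2, 15026 in SKMEL30), and all 18 for contrasts between lines (17133 genes). The quasi-likelihood test was used, p-values were adjusted over all genes tested, and calls were made at 0.05. The SE is the log2 change divided by the square root of F. Levels are CPM with TMM factors over all 18 libraries. Transcript lengths are from a GRCh37 annotation, matched by gene. Variation between the libraries of a group, beyond counting noise, came to 8.36% for SKMEL2 and 4.11% for SKMEL30 (coefficient of variation). Pairs of replicates differed by more than counting noise (chi-square per degree of freedom 2.13 to 20.7).

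The genes and lists were chosen with earlier results of these data known. Named genes are the 10, *PPP2R3B*, the pair of genes of each list with the smallest p in SKMEL2 at 18 h, and the 5 genes most like *HSP90AA1*; *SERPINH1*, *HSPA1B*, *HSPA4L* and the list genes with a 3-unit run were named outside this rule, and 1 gene that the rule names is not reported here. Replicate numbers were not used as pairs in the reported fit. Of the correlations of deviations between libraries of the same number, 3 of 9 were above 0.1 in SKMEL2 and 2 of 9 in SKMEL30. Libraries of different numbers were not compared in this way, so these correlations cannot show whether the numbers pair libraries. Alternatives were DESeq2 1.42.0 on the same libraries and on all 18, RLE size factors, no filter, at least 10 counts in every library, a replicate block, a fit of all 18 libraries, a fit of the 6 compared, and leaving out each library. The steps were tested on simulated data.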

Additional observations from a re-analysis of the deposited data

How the results depend on the processing

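The 10 genes called between the uninduced lines and the 0 called on induction were recounted under every alternative. On induction the count changed under 1 alternative: DESeq2 with all 18 libraries called 1 of the 10 in SKMEL2 at 18 h, *HSP90AA1*. The cause was not tested. Between the lines it ran from 8 to 10 with a library left out and stood at 10 otherwise. With a replicate block the counts were 10 between the lines and 0 on induction, as without it, and the block changed no other call of these genes. Leaving out single libraries kept all counts of the 10 on induction at 0.

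Over all genes the calls moved more. In SKMEL2 at 18 h there were 2 in the reported fit, 67 in DESeq2 with all 18 libraries and 168 with no filter on low counts. In SKMEL30 there were 44, with 9 in one fit of all 18 libraries and 359 with no filter. At 6 h the SKMEL2 fits gave 2 to 158 and the SKMEL30 fits 5 to 321. *HSPA1A* in SKMEL2 at 18 h, not called in the reported fit, was called by DESeq2 on the same libraries and on all 18 and with no filter. With no filter *HSPA4L*, named after its values were seen, was called there too, at 0.34 (adjusted p = 0.00949, edgeR), and 2 client genes were called in SKMEL30 at 18 h and 1 at 6 h.

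Fitted changes close to 0, none of them called, changed sign. For *FKBP4* in SKMEL2 at 6 h the value was -0.0115 with no filter, -0.0022 with all 18 libraries in a single fit and -0.0001 with DESeq2 on all 18. For *HSP90AB1* in SKMEL30 at 6 h it was -0.0009 with no filter and -0.0019 with DESeq2 on all 18, and for *PTGES3* in SKMEL30 at 18 h it was -0.0028 with the latter. Leaving out single libraries turned the sign of further log2 changes, over these ranges. In SKMEL2 at 6 h it ran from -0.0087 to 0.0409 for *HSP90AB1*, from -0.027 to 0.0662 for *TRAP1*, from -0.0781 to 0.0707 for *STIP1*, from -0.112 to 0.101 for *CDC37*, from -0.0149 to 0.0324 for *FKBP4* and from -0.049 to 0.1246 for *HSF1*. In SKMEL2 at 18 h it ran from -0.2083 to 0.0044 for *CDC37* and from -0.0898 to 0.062 for *HSF1*. In SKMEL30 at 6 h it ran from -0.0082 to 0.0168 for *HSP90AB1*, from -0.0256 to 0.0309 for *STIP1*, from -0.0755 to 0.0187 for *CDC37* and from -0.0357 to 0.0097 for *FKBP4*. In SKMEL30 at 18 h it ran from -0.017 to 0.0081 for *HSP90AB1*, from -0.0242 to 0.0074 for *STIP1*, from -0.0543 to 0.0081 for *CDC37* and from -0.0322 to 0.06 for *PTGES3*. For the line difference at 18 h it ran from -0.0582 to 0.0144 for *TRAP1* and from -0.192 to 0.0303 for *CDC37*. Depth bears least on the isoforms and most on the lowest genes: *HSF1* had 768 to 1463 counts per library.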
